A study of Mus musculus with 4 samples.

Results

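The 10 nuclear genes described here act in mitochondrial shape and outer-membrane exchange: the fusion genes Mfn1, Mfn2 and Opa1, the OPA1 protease gene Oma1, the fission genes Dnm1l, Fis1 and Mff, and the channel genes Vdac1, Vdac2 and Vdac3. They were taken by symbol from count tables of 23282 rows, and all 10 had 1 row and enough reads to be among the 13070 rows tested. The libraries came from primary pancreatic acinar cells of C57BL/6J mice, kept in medium with 25 ng/ml recombinant human epidermal growth factor (EGF), serum and trypsin inhibitor. For 36 h they carried an adenovirus at a multiplicity of infection of 100, encoding the orphan nuclear receptor ERRγ (gene Esrrg) in 2 libraries and green fluorescent protein (GFP) in the other 2, so both groups shared the vector and the EGF. The single comparison, ERRγ over GFP, asks which transcripts differ when ERRγ is overexpressed.

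Mitochondria fuse and divide continually. Mitofusins 1 and 2 join outer membranes and OPA1 joins inner membranes, while the dynamin-related GTPase DRP1, made from Dnm1l, is recruited by receptors such as MFF to constrict and cut the organelle. VDAC proteins are β-barrel pores through which ATP, ADP and small metabolites cross the outer membrane. ERRγ binds DNA at elements built on the half-site AAGGTCA and is known as a regulator of genes for oxidative metabolism.

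The libraries held between 10.11 and 11.01 M counts. Each count is a read near a transcript end, so splice forms of Opa1, Mff or Dnm1l are not told apart and levels are compared only for the same gene between libraries. Levels are given as CPM, a rate of counts relative to the TMM-scaled library size. Esrrg stood at 130 and 1280 CPM in ERRγ libraries 1 and 2 and at 8.8 and 9.6 CPM in GFP libraries 1 and 2. Its counted reads were thus very unequal between the ERRγ libraries. Whether reads near a transcript end capture all Esrrg RNA from the vector is not given. Marker transcripts of the labelled cell type were low: 13 acinar markers summed to between 51.0 and 112 CPM. Among them Ptf1a was at 0 in all 4 libraries, where a count of 0 allows up to 0.268 to 0.307 CPM. The 7 duct markers summed to 2681 and 3360 CPM with ERRγ and 3694 and 3596 CPM with GFP, the only one of 6 marker lists whose sums did not overlap between groups; Krt7 was lower and Cftr higher (log2 fold changes −0.65 and 1.25, edgeR adjusted p = 0.0285 and 0.0444). Of the acinar markers, the trypsinogen gene Prss2, whose near-identical relatives can share its reads, was higher (log2 fold change 2.78, adjusted p = 0.00905), and no marker in the other 4 lists passed. Stellate, islet, endothelial and leukocyte markers summed to 635 to 1085, 13.1 to 184, 5.03 to 13.7 and 6.69 to 14.6 CPM. The part of cell composition in the results was not tested, and in bulk RNA fewer cells of a type cannot be told apart from less RNA per cell.

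Vdac1 and Mff were the members that passed the test, and their promoter sequences are shown first because the introduced factor binds DNA. The RefSeq promoter table used here (GRCm38.p6) matched 8 of the 10 members, all but Vdac2 and Vdac3, with 14 windows from 250 bases before to 50 bases after a start. Vdac1 has a pair of starts; the stretch before the upstream one is chr11:52360601-52360850 and that before the downstream one is chr11:52361347-52361596, both on the plus strand. In the GENCODE M21 models the latter stretch lies within the bounds of the Vdac1 gene. The 250 bases before the upstream start of Mff are chr1:82724640-82724889, plus strand. Capitals mark the ERR half-site AAGGTCA, here read as its reverse complement.
Vdac1, upstream start: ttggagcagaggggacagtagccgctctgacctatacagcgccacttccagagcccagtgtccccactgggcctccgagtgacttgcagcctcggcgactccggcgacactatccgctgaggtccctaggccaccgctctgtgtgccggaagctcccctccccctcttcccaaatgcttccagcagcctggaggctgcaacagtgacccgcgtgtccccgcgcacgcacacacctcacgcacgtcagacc
Vdac1, downstream start: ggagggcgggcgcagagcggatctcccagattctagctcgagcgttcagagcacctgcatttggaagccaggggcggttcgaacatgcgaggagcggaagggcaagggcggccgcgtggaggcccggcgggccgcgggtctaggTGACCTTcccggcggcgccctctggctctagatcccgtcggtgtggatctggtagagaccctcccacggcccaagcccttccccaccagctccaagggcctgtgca
Mff, upstream start: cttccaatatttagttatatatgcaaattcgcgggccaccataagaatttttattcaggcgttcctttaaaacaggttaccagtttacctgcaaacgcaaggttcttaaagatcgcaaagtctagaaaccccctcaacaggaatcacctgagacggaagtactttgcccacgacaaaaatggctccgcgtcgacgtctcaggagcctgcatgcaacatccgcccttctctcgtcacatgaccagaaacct

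The half-site AAGGTCA, searched on both strands of each 300-base window, was present in 1 of the 14 windows, that of the downstream Vdac1 start. Its bases are 52361491 to 52361497 of chromosome 11, the match beginning 106 bases before that start. Of all 32851 RefSeq promoter windows of the same length, 4.72% hold AAGGTCA. The longer element TNAAGGTCA, which contains the half-site, was in none of the members' windows and in 1.28% of all windows. The NRF1 core CGCNTGCGC was in the window of Oma1, 22 bases before the start, in that of Opa1, where matches on both strands overlap 59 and 58 bases before the start, and in 6.25% of all windows. The ETS core CCGGAAG was in windows of Mfn1, Fis1, Dnm1l and the upstream Vdac1 start, and in 8.86% of all windows. A match is a string of letters, and no binding was measured.

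Of the 10 members, Vdac1 and Mff were higher with ERRγ and none was lower at an adjusted p under 0.05 (edgeR quasi-likelihood test, Benjamini-Hochberg over all 13070 genes). Among all genes tested, 5.06% were called higher and 1.78% lower. In 6 members both ERRγ libraries lay above both GFP libraries (Mfn1, Opa1, Mff, Vdac1, Vdac2 and Vdac3), against 27.4% of all genes. In Mfn2 both lay below, against 26.6% of all genes, and Oma1, Dnm1l and Fis1 overlapped. The median log2 fold change of the members was 0.19, beside −0.01 for all genes tested. The members were chosen with earlier results of these data known, so these shares are descriptions only. The labels do not say whether replicates are separate cultures or animals, so p-values reflect no more than the spread among 4 libraries, which may be technical.

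**Figure D1:**
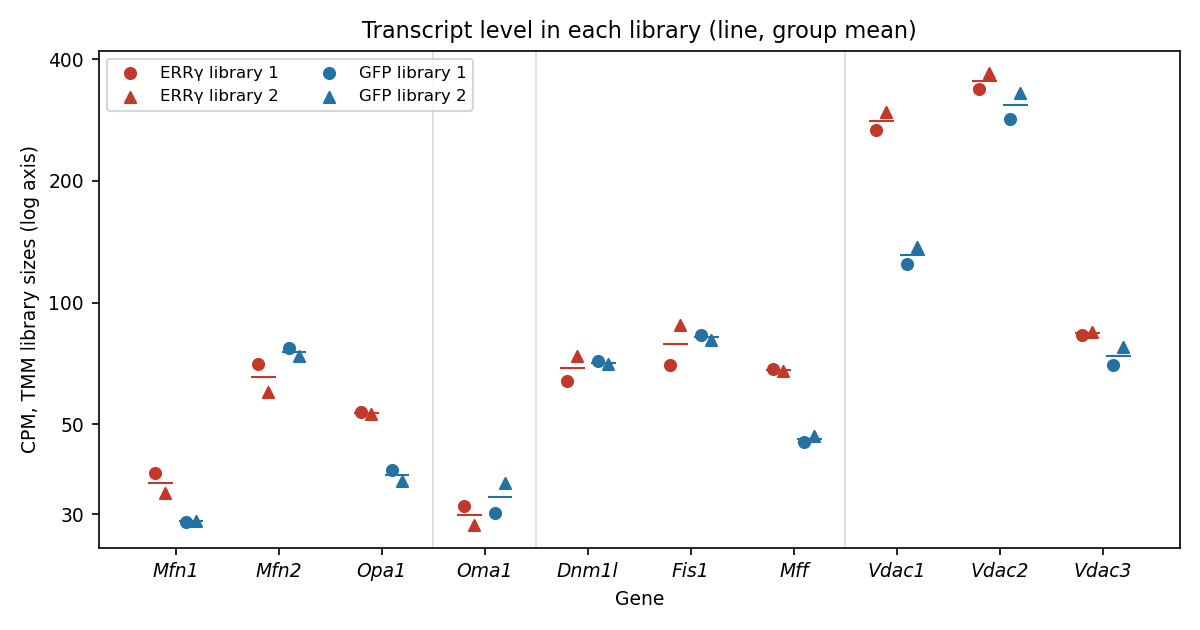
Level of each member in the 4 libraries, in CPM on a log axis, with 1 point per library and a short line at each group mean. The ERRγ and GFP points of Vdac1, Mff and Opa1 stand clearly apart, those of Oma1, Dnm1l and Fis1 overlap, and Vdac1 lies at 267 and 295 CPM against 125 and 138 CPM.

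Among the channels, Vdac1, the VDAC form known as a docking site for hexokinase, was about doubled. Its gene is on chromosome 11, 52360860 to 52389397, plus strand (GENCODE M21, GRCm38). Its counts were 2996 and 2991 in the ERRγ libraries and 1219 and 1532 in the GFP libraries, or 267 and 295 CPM against 125 and 138 CPM. Both ERRγ libraries were far above both GFP libraries, and the gap between ERRγ libraries was small although their Esrrg CPM values were so unequal. The mean rose 2.15-fold, from 131 ± 9.04 to 281 ± 19.9 CPM (SD, n = 2; log2 fold change 1.10, SE 0.14, adjusted p = 0.00481 with edgeR). By p it ranked 130 of 13070, and its fold change stood at percentile 94.0 of all genes tested. The call ended when GFP library 1 was left out (adjusted p = 0.11 at a log2 fold change of 1.03) and when GFP library 2 was (adjusted p = 0.0673 at 1.17), fits in which only the ERRγ pair measures the spread.

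Vdac2, the form known to hold the apoptosis effector BAK at mitochondria, is on chromosome 14, 21825238 to 21845879, plus strand. It was at 337 and 369 CPM with ERRγ and 284 and 330 CPM with GFP. The higher GFP library came close to the lower ERRγ library, and the log2 fold change of 0.20 (95% interval −0.13 to 0.53, edgeR adjusted p = 0.453) did not pass. Vdac3, the third mammalian form, is on chromosome 8, 22577075 to 22593813, minus strand, and stood at 83.3 and 84.7 CPM against 70.2 and 77.5 CPM. Its log2 fold change was 0.18 (−0.12 to 0.49, adjusted p = 0.455). The intervals of Vdac2 and Vdac3 end below the lower bound for Vdac1, which was 0.78. Exons of Vdac2 overlap those of Comtd1 on the opposite strand, a row with 216 to 280 counts where Vdac2 had 2776 to 3772, and the use of strand in counting is not given in the sources used here. Processed pseudogenes resemble the transcript ends of Vdac2 (Gm7832, 97% identity over 500 bases) and of Vdac1 (Gm6008, 90.6% over 487 bases, and Gm15132, 90.4% over 188 bases), and none of them has a row in the tables.

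The balance within the VDAC family was followed as a ratio in each library, in which library scaling cancels. The ratio of Vdac1 to Vdac2 counts was 0.794 and 0.801 with ERRγ and 0.439 and 0.416 with GFP. It was 1.87 times as high with ERRγ (log2 difference 0.90; 0.86 to 0.94 when a library was left out). The ratio of Vdac1 to Vdac3 counts was 3.21 and 3.49 against 1.78 and 1.77, or 1.88 times as high (log2 difference 0.91; 0.85 to 0.98). Reads near transcript ends need not be counted equally well for different genes, so only the change of each ratio between groups is read. For both the groups were separate by many times the spread within a group. The exact two-sided permutation p was 0.333 for each, the smallest that this test allows with 2 against 2 libraries, so it cannot reach 0.05 for any ratio here.

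**Figure D2:**
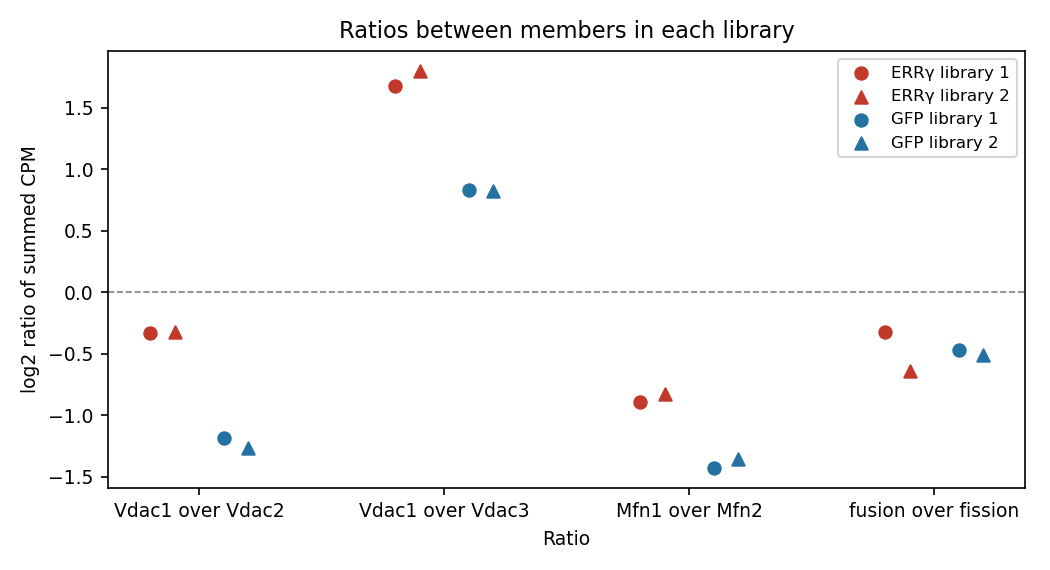
Log2 ratio of summed CPM in each library for 4 pairs of members or roles, with 1 point per library. The ratios of Vdac1 to Vdac2 and to Vdac3 and of Mfn1 to Mfn2 are higher in both ERRγ libraries than in both GFP libraries, and the fusion to fission ratio of the GFP libraries lies between those of the ERRγ libraries.

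Of the fission genes, Mff alone passed the test. It encodes the outer-membrane receptor for DRP1 and lies on chromosome 1, 82724890 to 82752394, plus strand. It had 68.5 and 67.6 CPM with ERRγ and 45.1 and 46.9 CPM with GFP, from 441 to 768 counts. The libraries of each group nearly coincided and the groups were well apart. The mean rose 1.48-fold, from 46.0 ± 1.23 to 68.0 ± 0.672 CPM (SD, n = 2; log2 fold change 0.57, SE 0.13, edgeR adjusted p = 0.0459). This value is close to the threshold, and the call ended with library totals in place of TMM (log2 fold change 0.60, adjusted p = 0.0674), with DESeq2 (0.56, adjusted p = 0.0529) and without GFP library 1 (0.53, adjusted p = 0.327) or GFP library 2 (0.59, adjusted p = 0.243). Mff overlaps exons of the transcript C430014B12Rik on the opposite strand, which has no row in the tables.

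Dnm1l, the gene of DRP1 itself (chromosome 16, 16312230 to 16358959, minus strand), was at 64.1 and 73.9 CPM with ERRγ and 71.5 and 70.6 CPM with GFP. Both GFP values lay between the ERRγ values, and the log2 fold change was −0.04 (95% interval −0.37 to 0.28, edgeR adjusted p = 0.897). Fis1, which encodes a small tail-anchored outer-membrane protein, is on chromosome 5, 136953275 to 136966234, plus strand, and stood at 69.9 and 87.8 CPM against 83.4 and 80.9 CPM. Its log2 fold change was −0.06 (−0.41 to 0.30, adjusted p = 0.866), and the gap between its ERRγ libraries, 0.33 on the log2 scale with library 1 the lower, was larger than that. Without ERRγ library 1 the log2 fold changes of Dnm1l and Fis1 were 0.056 and 0.097, so their direction is not settled. The pseudogene Gm13719, with 94.2% identity to a Dnm1l transcript end over 500 bases, has no row, and the antisense gene Gm49521 overlaps Dnm1l exons.

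None of the fusion genes passed. Opa1, the dynamin-like GTPase of the inner membrane that also shapes cristae (chromosome 16, 29579334 to 29654884, plus strand), was at 53.5 and 52.9 CPM with ERRγ and 38.6 and 36.2 CPM with GFP. The groups stood well apart, with a log2 fold change of 0.51 (SE 0.14, 95% interval 0.19 to 0.83), but the adjusted p was 0.0671 with edgeR. With no filter on low counts it fell under the threshold (edgeR adjusted p = 0.0434). It stayed above with library totals in place of TMM (edgeR adjusted p = 0.0952) and with DESeq2 (adjusted p = 0.131). The log2 fold change ran from 0.46 to 0.55 when a library was left out. In the main fit Opa1 thus lay just on the other side of the threshold from Mff, with a fold change of similar size.

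The mitofusin genes had fold changes of opposite sign, and neither passed. Mfn1 (chromosome 3, 32529465 to 32579239, plus strand) stood at 37.8 and 33.9 CPM with ERRγ and 28.6 and 28.9 CPM with GFP (log2 fold change 0.32, 95% interval −0.04 to 0.67, edgeR adjusted p = 0.266). Mfn2, whose product also tethers mitochondria to the endoplasmic reticulum, is on chromosome 4, 147873599 to 147904704, minus strand. It stood at 70.3 and 60.3 CPM with ERRγ and 77.1 and 73.9 CPM with GFP (log2 fold change −0.21, −0.54 to 0.12, adjusted p = 0.425). The ratio of Mfn1 to Mfn2 counts was 0.538 and 0.562 with ERRγ and 0.371 and 0.391 with GFP. It was 1.44 times as high with ERRγ, a log2 difference of 0.53 (0.49 to 0.57 when a library was left out; exact two-sided permutation p = 0.333, the smallest possible). The groups did not overlap for this ratio.

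Oma1, the stress-activated protease that cleaves OPA1 (chromosome 4, 103313812 to 103371868, plus strand), was the member with the lowest mean count. It had 31.5 and 28.2 CPM with ERRγ and 30.2 and 35.8 CPM with GFP, and the groups overlapped (log2 fold change −0.15, 95% interval −0.53 to 0.24, edgeR adjusted p = 0.655). The summed fusion genes Mfn1, Mfn2 and Opa1 over the summed fission genes Dnm1l, Fis1 and Mff gave 0.798 and 0.642 with ERRγ and 0.722 and 0.7 with GFP. The log2 difference of this ratio was 0.0090, far smaller than its SD of 0.22 between the ERRγ libraries (exact two-sided permutation p = 1).

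**Figure D3:**
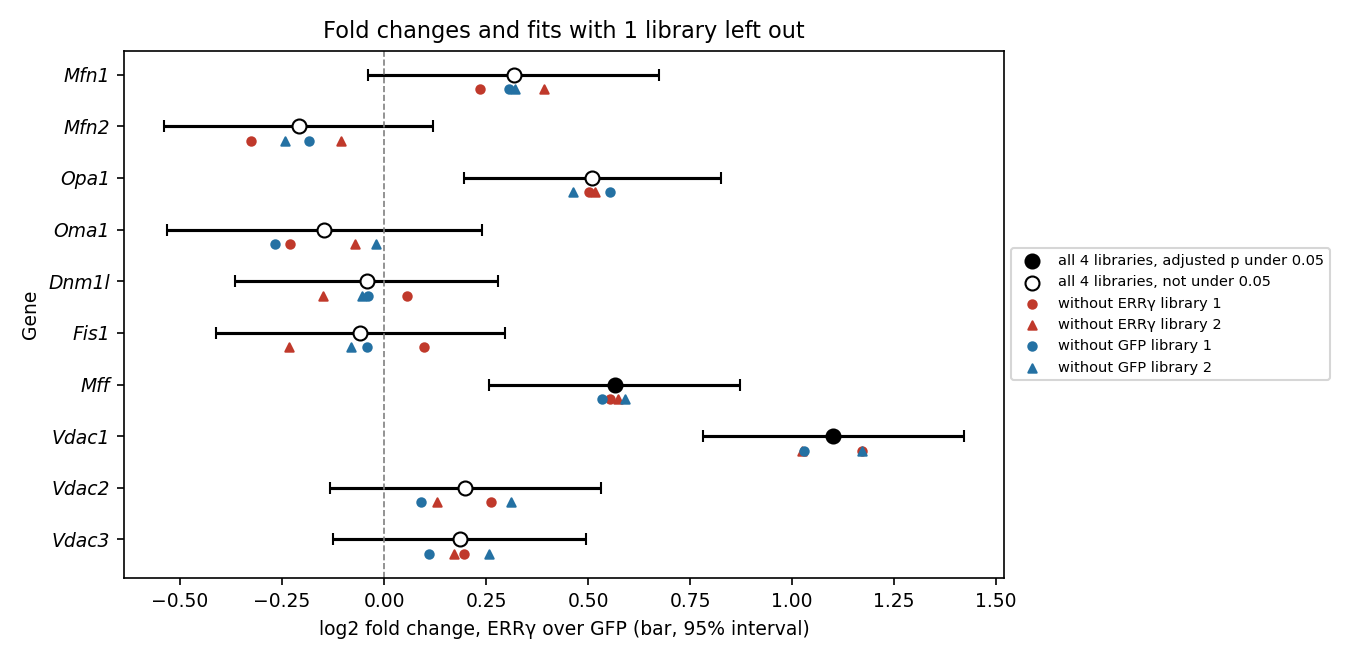
Log2 fold change of each member, ERRγ over GFP, with its 95% interval, and below it the values with 1 library left out. Filled circles (Vdac1 and Mff) mark an adjusted p under 0.05, and among the members the sign changes with a library left out only for Dnm1l and Fis1.

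Genes that work with the members were described through 5 lists holding none of them, 66 genes in all, of which 64 were tested. Of these, 10 were higher with ERRγ, 15.6% beside 5.06% of all genes tested, and none was lower; the median log2 fold change was 0.31. Both ERRγ libraries lay above both GFP libraries in 38 of the 64 and below them in 6, against 27.4% and 26.6% of all genes. The lists were chosen with earlier results of these data known and were not tested as sets. The shares here and for each list below are therefore descriptions and no independent support. Among VDAC partners of the outer membrane, 3 of 20 genes rose (median 0.33). Hk1, the hexokinase that docks on VDAC1, was at 167 and 222 CPM with ERRγ and 67.1 and 65.5 CPM with GFP (a log2 fold change of 1.55, SE 0.17, edgeR adjusted p = 0.00267). The inner-membrane ADP/ATP carriers, which feed the nucleotides that cross VDAC, rose too: Slc25a5 was at 262 and 289 CPM against 130 and 142 CPM (1.01, SE 0.14, adjusted p = 0.00614), and Slc25a4 at 260 and 288 CPM against 172 and 168 CPM (0.69, SE 0.13, adjusted p = 0.023). Hk2, picked out after its values were seen, was at 285 and 1024 CPM against 244 and 263 CPM (1.37, adjusted p = 0.137), so that ERRγ library 2 alone stood apart; without it the log2 fold change was 0.16.

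In the list of OPA1 processing and quality control proteases 3 of 9 genes passed and were higher (33.3%, beside 5.06% of all genes tested). The list median was 0.33. Both ERRγ libraries lay above both GFP libraries in 7 of the 9 and below them in 2, against 27.4% and 26.6% of all genes. The 2 below were picked out after their values were seen, and neither passed. Yme1l1 was at 84.4 and 83.0 CPM with ERRγ and 107 and 105 CPM with GFP (log2 fold change −0.34, edgeR adjusted p = 0.165). Htra2 had a log2 fold change of −0.23 (edgeR adjusted p = 0.381). Lonp1, the matrix protease, was at 110 and 157 CPM with ERRγ and 64.3 and 76.3 CPM with GFP (log2 fold change 0.93, edgeR adjusted p = 0.0296). Phb, which encodes the inner-membrane scaffold prohibitin, was at 123 and 136 CPM against 73.5 and 86.2 CPM (0.70, adjusted p = 0.0293). Afg3l2, a subunit of the m-AAA protease, was at 56.9 and 80.1 CPM against 38.3 and 42.1 CPM (0.77, adjusted p = 0.0499); it missed the threshold with DESeq2 size factors (0.0513) and limma-voom (0.0618), and without ERRγ library 2 its log2 fold change was 0.50. Of 11 fusion-related genes Chchd3, a component of the cristae-organising MICOS complex, was the 1 past the threshold, with 75.7 and 83.2 CPM against 52.0 and 43.3 CPM (0.74, adjusted p = 0.0285; list median 0.38). Both ERRγ libraries were above both GFP libraries in 7 of the 11 and below them in 1, against 27.4% and 26.6% of all genes. Miga2 (row Fam73b) was among the 7 (0.98, adjusted p = 0.0549 with edgeR and 0.049 with DESeq2). Miga1 (row Fam73a) was the 1 below (log2 fold change −0.43, edgeR adjusted p = 0.148). Miga1 and Miga2 were picked out after their values were seen.

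Among 12 tested fission receptors and regulators 2 rose (16.7%, beside 5.06% of all genes tested), although the list's median was −0.02. Mtfp1, an inner-membrane protein known to promote fission, had 135 and 129 counts in the ERRγ libraries and 5 and 30 in the GFP libraries (log2 fold change 2.91, SE 0.58, edgeR adjusted p = 0.0252). The GFP libraries were very unequal for it: without GFP library 1 the log2 fold change was 2.19 (adjusted p = 0.101) and without GFP library 2 it was 4.56 (adjusted p = 0.0233). Akap1, an outer-membrane anchor for protein kinase A, was at 54.8 and 43.0 CPM against 20.9 and 20.9 CPM (1.23, SE 0.17, adjusted p = 0.00726). Of 12 tested genes of mitochondrial transport and mitophagy, Trak2, a motor adaptor, was the 1 past the threshold, at 40.7 and 46.2 CPM against 26.3 and 25.7 CPM (0.74, adjusted p = 0.0296; list median 0.19). In 5 of the 12 both ERRγ libraries were the higher and in 0 both were the lower, against 27.4% and 26.6% of all genes. Bnip3 was among the 5 (log2 fold change 1.68, edgeR adjusted p = 0.0879), also picked out after its values were seen. Without ERRγ library 2 its log2 fold change was 0.48. Gdap1 and Park2, with 2 to 8 and 0 to 2 counts a library, were too low to test. Apart from Mtfp1 without GFP library 2, the 10 calls ended when either GFP library was left out, with adjusted p between 0.0542 and 0.349.

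**Figure D4:**
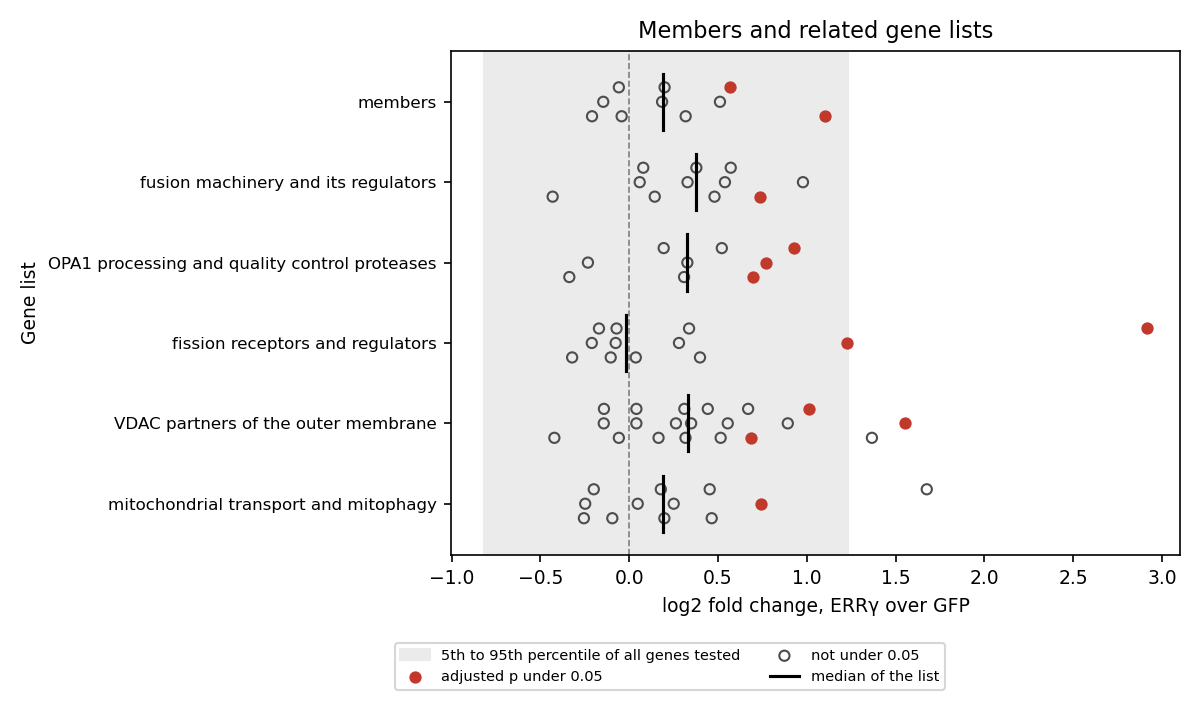
Log2 fold changes of the members and of the tested genes in 5 related lists, with filled points for an adjusted p under 0.05, a bar at each list's median and grey shading from the 5th to the 95th percentile of all genes tested (−0.82 to 1.23). Every filled point lies to the right of 0, and the fission regulators have a median near 0 with Mtfp1 at 2.91.

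The genes whose pattern over the 4 libraries lay closest to that of Vdac1 were Acox3, Aifm1 and Prdx5, out of 8459 genes with a mean of at least 10 CPM. The measure was the Euclidean distance between log2 CPM values centred on each gene's own mean, and the distances were 0.0486, 0.063 and 0.0866. Acox3, a peroxisomal acyl-CoA oxidase gene, was at 35.2 and 39.1 CPM with ERRγ and 17.0 and 18.7 CPM with GFP. Aifm1, which encodes apoptosis-inducing factor of the intermembrane space, was at 82.5 and 86.0 CPM against 36.7 and 41.2 CPM. Prdx5, a peroxiredoxin gene, was at 244 and 268 CPM against 121 and 132 CPM. In each the values about doubled, with library 2 a little above library 1 in both groups as in Vdac1. A set of 4 libraries allows many genes to share such a shape, so this is a description with no test.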

How the data were processed

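Whole-number read counts per gene symbol, as deposited by the authors in 1 table for each of 4 libraries, were used without change; per the labels' protocols, libraries were made with a Lexogen QuantSeq kit from 500 ng total RNA. The submitters' processing notes name Bowtie2, edgeR and mm10; which counter, annotation and strand setting were used is not given in the sources used here. With R 4.3.3 and edgeR 4.0.16, rows were kept by filterByExpr (minimum count 10), scaled by TMM and fitted with the group alone (glmQLFit, glmQLFTest; 2 residual degrees of freedom). P-values are two-sided, adjusted by Benjamini-Hochberg over the whole table and called under 0.05. The test was tried on counts simulated with the spread fitted to these libraries, so that trial does not check the spread itself. SE is the log2 fold change over the square root of F; 95% intervals use the moderated degrees of freedom. Alternatives used DESeq2 1.42.0, limma-voom 3.58.1, other scalings and filters, the replicate number as a block, and each library left out.

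The ERRγ libraries totalled 10480878 and 10645277 counts and the GFP libraries 10105604 and 11012351; the limit from a count of 0 is 3 counts and, with no molecular identifiers mentioned, covers counting error only. The members and lists were chosen with earlier results of these data known. Named genes were all members and each list gene past the threshold or with its list's smallest p. The 3 genes most like Vdac1 (mean of at least 10 CPM, no predicted genes) were also named. Hk2, Miga1, Miga2, Yme1l1, Htra2 and Bnip3 were added after their values were seen. Positions are from GENCODE M21, promoters from RefSeq. Copies were sought with blastn 2.17.0 (last 500 bases, at least 90% identity over 100 bases).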

Additional observations from a re-analysis of the deposited data

How the results depend on the processing

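The main counts were 2 members higher and 0 lower, and 10 genes of the related lists higher and 0 lower. With library totals and with DESeq2, 1 member was higher. With no filter 18 list genes were higher, and in that fit 1271 genes in all were higher and 738 lower, against 661 and 233. With 1 library left out, members higher ran from 0 to 3, list genes higher from 0 to 20 and list genes lower from 0 to 1; over all genes 92 to 1597 were higher and 7 to 1098 lower. The low ends of the higher counts came without GFP library 1, and without GFP library 2 there were 0 members and 1 list gene. In those fits the log2 fold change of Dnm1l ran from −0.15 to 0.056 and that of Fis1 from −0.23 to 0.097, both turning positive without ERRγ library 1. The log2 difference of the fusion to fission ratio ran from −0.15 to 0.17, and was −0.013 without GFP library 2. The ranges were 0.86 to 0.94 for Vdac1 over Vdac2, 0.85 to 0.98 for Vdac1 over Vdac3 and 0.49 to 0.57 for Mfn1 over Mfn2. In the 7 alternative fits of all 4 libraries, no member changed direction, and 67 of 70 members' results kept their side of the threshold. With the replicate number as a block, 2 members were higher and 0 lower, and 13 list genes were higher and 0 lower. The numbers are not known to pair libraries (correlation across 13070 genes of same-numbered libraries' deviations, 0.00744). The cause of these changes was not tested, except that a fit without a GFP library takes its spread from the ERRγ pair alone.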
